A study of Mus musculus with 17 samples.

Results

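The genes examined were 10 receptors and secreted factors with which macrophages bind modified lipoproteins, sugars, haemoglobin complexes and dying cells: Cd36, Msr1, Marco, Mrc1, Cd163, Stab1, Mertk, Axl, Cd5l and Trem2. Open chromatin at these genes was mapped by ATAC-seq, a method that uses a transposase to tag DNA not packed into nucleosomes. Every peak within 20 kb of the body of one of these genes (mm10, GENCODE annotation) was taken, which gave 1215 peaks over 17 peak lists. Of these peaks, 500 lay outside the consensus sites, and the others fell into 40 consensus sites of 34158 in the whole series.

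The cells were bone marrow-derived macrophages (BMDMs) of male mice aged 6 to 12 weeks, grown in L929-conditioned medium. Wild-type (WT) animals gave 8 of the 17 lists and Nur77-deficient littermates (KO) the other 9, Nur77 being the orphan nuclear receptor of the Nr4a1 gene. The KO was whole-body. A loxP-flanked Nr4a1 allele had been deleted by crossing to C57Bl6/J mice with a Cre driven by the CMV promoter. The Cre was then bred out, although the genotype label of the KO samples reads cre. Each genotype was sampled without lipopolysaccharide (LPS, 0 h) and after 1 and 18 h of 100 ng/ml LPS, with 3 lists in every group except WT at 1 h, which had 2. The labels call 1 of those lists replicate 1-2, and do not say whether replicates came from separate mice, so the p-values measure the spread between these lists, which may be technical.

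Scavenger receptors take up ligands without the need for antibody, and several of them also bind phosphatidylserine, the lipid that dying cells expose. Efferocytosis, the engulfment of dying cells, further relies on the receptor tyrosine kinases Mertk and Axl, which reach their target through the bridging proteins Gas6 and protein S. In macrophages these genes differ in regulation: Mertk and Mrc1 are known as markers of resting or anti-inflammatory cells, whereas Axl is known to be induced by inflammatory signals. LPS acts through Toll-like receptor 4 and reshapes the open chromatin of macrophages within an hour.

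No read counts were used, since the files used here hold peaks only. In bulk samples, fewer cells with a site open and a less open site in each cell cannot be told apart. Peaks were therefore ranked inside each list by p-value, with rank 1 the strongest, and only the best 24389 of each list were compared, the number in the shortest list. These are called matched-number peaks. A rank score, log2 of 24390 divided by the rank, was given to each site in each list, and a site without a matched-number peak scored 0. A rise of 1 in the score divides the rank by 2. Where every list of a group had a peak and no list of the other had one, the difference is a minimum, since any peak ranked past the number compared also scored 0.

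The lists differed 25.5-fold in recovered depth, from 0.382 to 9.75 background reads per kb, and depth moved with the groups. The WT lists had 5.11 to 9.75 before LPS, 0.382 and 1.61 after 1 h and 4.62 to 8.38 after 18 h. The KO lists had 0.720 to 7.65, 0.593 to 4.14 and 1.10 to 1.76 at the same times. A pair of lists stood apart. WT 1 h replicate 1-2 was the shallowest, with 3 to 23 reads at the summits of the sites described here. KO 18 h replicate 1 had a median peak width of 135 bp, against 338 to 661 bp in the other lists. Of 6 macrophage promoters (Csf1r, Adgre1, Itgam, Spi1, Fcgr1 and Cd68), 5 carried a matched-number peak in all 17 lists and Fcgr1 in 15. The T cell promoters Cd3e, Cd3g and Lck and the neutrophil promoters Ly6g, Ngp and Elane carried none in any list. The promoters of S100a8, Zbtb46 and Col1a1, from the neutrophil, dendritic cell and fibroblast lists, carried one in 15, 13 and 14 lists.

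The 40 sites are named by gene and by the distance of their strongest summit from the gene's reference transcription start site (TSS), with + for downstream. Of these sites, 13 were present in all 17 matched-number lists, 17 in 6 to 16 lists and 10 in 2 to 5. They comprised 10 sites at Mertk, 7 at Cd36, 5 each at Msr1 and Mrc1, 4 at Stab1 and 3 each at Axl, Cd5l and Trem2. Marco and Cd163 had none. An intron of the gene itself held 21 sites and intergenic DNA 13. Outside the 40 sites lay 500 further peaks in 126 merged regions, of which 12 peaks were matched-number peaks.

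**Figure D1:**
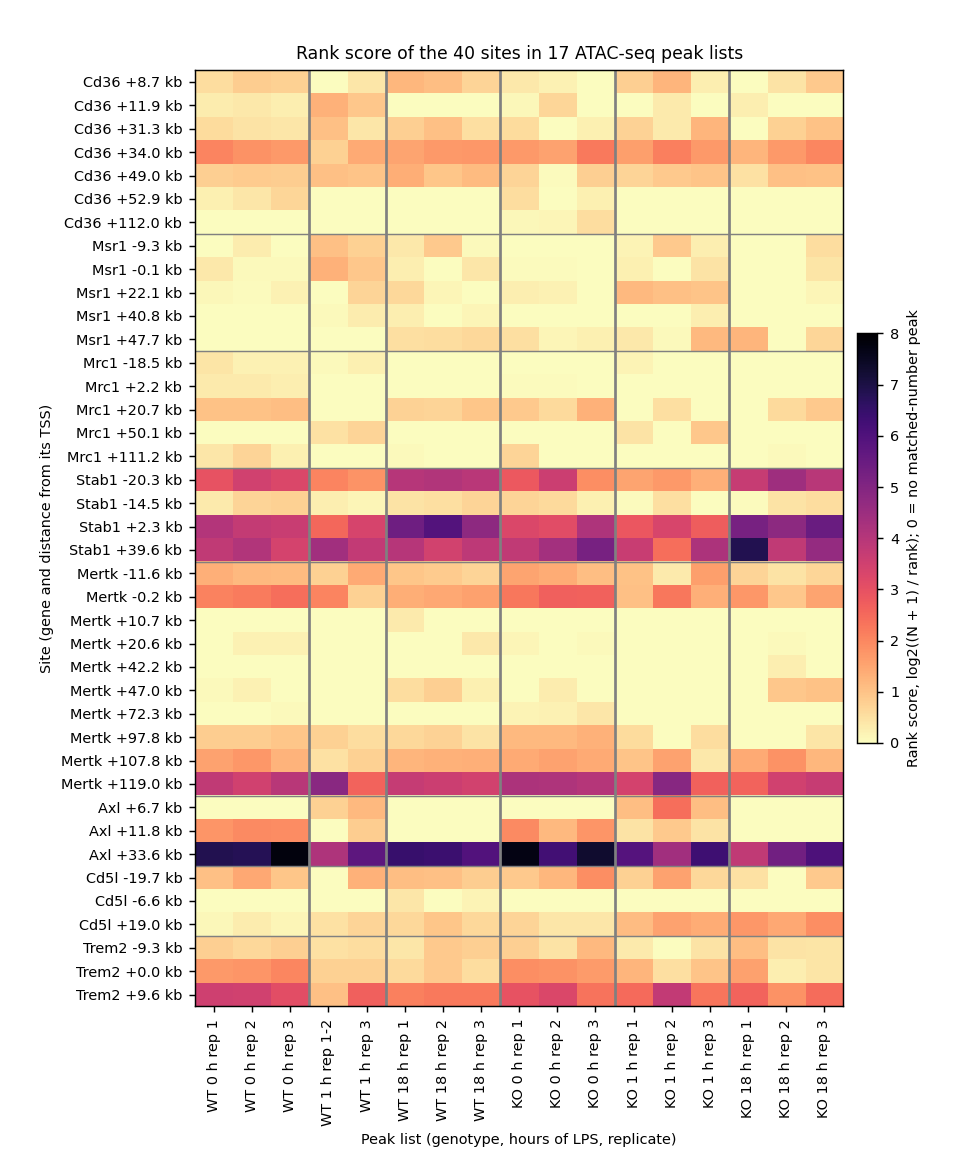
Rank scores of the 40 sites (rows, by gene and distance from the TSS) in the 17 peak lists (columns, by genotype, hours of LPS and replicate), where darker cells are stronger and the palest cells hold no matched-number peak. The strongest row is the Axl +33.6 kb site, ranked between 110 and 1748, while most Mrc1 and Msr1 rows are pale; the Axl +6.7 kb row is filled in the 5 lists at 1 h only.

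The sequences that the main results rest on are printed here from GRCm38 (mm10), as 201 bases on the strand of the gene, 5′ to 3′, centred on the strongest summit. At the Trem2 and Msr1 promoters the window was moved upstream by 124 and 57 bases so that it held no UTR. Capitals mark motif matches on either strand. The motifs sought were PU.1 (GAGGAAGT), AP-1 (TGAGTCA), C/EBP (TTGCNNAA or TTACNNAA), NBRE (AAAGGTCA), which is the monomer element of Nur77, the E-box of MITF and TFEB (CACGTG), and NF-kB, CTCF and the DR1 and DR4 repeats of nuclear receptors, searched by consensus. The set shows the Axl intron sites that lost or gained matched-number peaks with LPS, and the Trem2 and Mertk promoters that fell. It also shows the Stab1 intron site that rose late and the Msr1 sites that rose early. The Cd36, Mrc1 and Cd5l sites that differed by genotype complete it.
Axl +11.8 kb (chr7:25776809-25777009, minus strand): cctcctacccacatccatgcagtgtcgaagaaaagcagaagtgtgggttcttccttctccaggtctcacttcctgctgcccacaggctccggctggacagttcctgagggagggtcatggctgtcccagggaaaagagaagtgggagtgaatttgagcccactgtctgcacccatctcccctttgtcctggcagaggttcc
Axl +6.7 kb (chr7:25781936-25782136, minus strand): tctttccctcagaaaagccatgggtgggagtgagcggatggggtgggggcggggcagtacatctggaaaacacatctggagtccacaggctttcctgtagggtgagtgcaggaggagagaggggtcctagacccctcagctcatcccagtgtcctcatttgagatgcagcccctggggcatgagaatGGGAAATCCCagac
Trem2 +0.0 kb (chr17:48346199-48346399, plus strand): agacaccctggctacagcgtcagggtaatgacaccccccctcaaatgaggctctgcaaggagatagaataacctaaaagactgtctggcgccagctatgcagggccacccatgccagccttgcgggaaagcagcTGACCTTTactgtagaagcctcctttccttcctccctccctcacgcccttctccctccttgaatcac
Mertk -0.2 kb (chr2:128698694-128698894, plus strand): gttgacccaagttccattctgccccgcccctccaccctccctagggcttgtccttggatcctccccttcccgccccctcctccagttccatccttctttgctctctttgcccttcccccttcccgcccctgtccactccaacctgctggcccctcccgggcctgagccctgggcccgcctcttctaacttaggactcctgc
Stab1 +2.3 kb (chr14:31166234-31166434, minus strand): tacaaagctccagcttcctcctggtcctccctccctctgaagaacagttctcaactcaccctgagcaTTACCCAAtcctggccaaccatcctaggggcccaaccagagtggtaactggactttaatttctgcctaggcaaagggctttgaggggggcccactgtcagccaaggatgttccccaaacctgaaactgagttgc
Msr1 -0.1 kb (chr8:39642674-39642874, minus strand): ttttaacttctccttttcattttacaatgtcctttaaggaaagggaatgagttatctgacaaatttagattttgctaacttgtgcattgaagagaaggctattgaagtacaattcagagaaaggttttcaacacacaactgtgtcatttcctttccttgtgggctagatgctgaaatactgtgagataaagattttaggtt
Msr1 +22.1 kb (chr8:39620384-39620584, minus strand): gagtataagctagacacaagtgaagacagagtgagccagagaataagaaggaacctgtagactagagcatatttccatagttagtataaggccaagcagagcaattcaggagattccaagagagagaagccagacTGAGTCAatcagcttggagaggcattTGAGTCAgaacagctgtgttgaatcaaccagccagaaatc
Cd36 +11.9 kb (chr5:17876717-17876917, minus strand): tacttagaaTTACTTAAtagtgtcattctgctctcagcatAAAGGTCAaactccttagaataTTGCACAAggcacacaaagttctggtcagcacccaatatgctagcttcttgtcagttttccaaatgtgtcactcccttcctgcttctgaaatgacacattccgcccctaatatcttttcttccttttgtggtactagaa
Mrc1 +2.2 kb (chr2:14231523-14231723, plus strand): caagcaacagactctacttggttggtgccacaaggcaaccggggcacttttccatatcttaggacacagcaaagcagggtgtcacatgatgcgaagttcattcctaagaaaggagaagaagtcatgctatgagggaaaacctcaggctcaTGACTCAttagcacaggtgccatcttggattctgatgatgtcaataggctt
Cd5l +19.0 kb (chr3:87376794-87376994, plus strand): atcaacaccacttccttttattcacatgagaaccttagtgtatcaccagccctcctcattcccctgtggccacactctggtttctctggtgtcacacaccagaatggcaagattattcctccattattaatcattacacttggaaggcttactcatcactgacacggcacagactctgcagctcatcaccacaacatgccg

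Within 100 bp of the strongest summit, 12 of the 40 sites (30.0%) held the C/EBP motif, against 17% of all 34158 consensus sites. AP-1 was found at 7 sites (17.5%, all sites 16.2%), PU.1 at 3 (7.5%, 7.71%), NF-kB at 2 (5.0%, 7.47%) and the E-box at 1 (2.5%, 5.81%). The NBRE was found at 2 sites (5.0%, 1.05%), the Trem2 promoter and Cd36 +11.9 kb. CTCF, DR1 and DR4 were found at none of the 40 sites (all sites 2.80%, 0.176% and 0.105%), and 17 sites held no motif of the list. Of the 7 sites with AP-1, 3 were at Msr1, and among those were Msr1 +22.1 kb and Msr1 -9.3 kb. In the windows printed above, the capitals mark NF-kB in Axl +6.7 kb, the NBRE in the Trem2 promoter, C/EBP in Stab1 +2.3 kb, AP-1 in Msr1 +22.1 kb and Mrc1 +2.2 kb, and C/EBP and the NBRE in Cd36 +11.9 kb.

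The promoters differed widely in how often they were open. A promoter peak, with its summit within 1 kb of a TSS of a protein-coding transcript, was among the matched-number peaks of all 17 lists at Mertk and Trem2. It was present in 16 lists at Stab1, in 13 at Msr1 and in 5 at Cd36. At Mrc1, Cd5l, Axl, Marco and Cd163 it was present in none. In the complete lists, without the limit on number, the Mrc1 promoter had a peak in 9 lists and the Cd5l promoter in 6, at ranks no better than 27440 and 27728, while Axl, Marco and Cd163 still had none. The Stab1 count came mostly from an internal TSS, 28.82 kb into the gene, and the Cd36 count from an internal TSS, 52.9 kb into the gene.

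**Figure D2:**
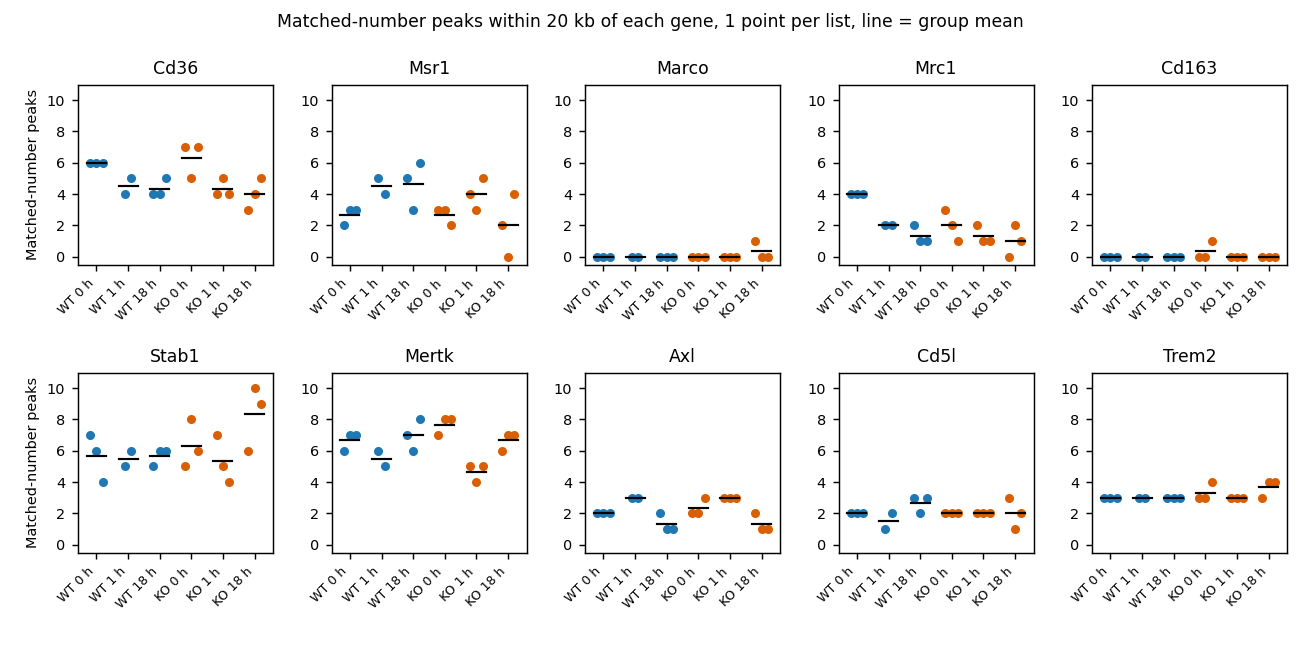
Number of matched-number peaks within 20 kb of each of the 10 genes (vertical axis, peaks per list) in the 6 groups, with 1 point per list and a line at the group mean. Marco and Cd163 held at most 1 peak in any list, and every list at 1 h held 3 peaks at Axl, where the lists at 18 h held 1 or 2.

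Summed over the 10 genes, untreated lists had 32.0 ± 1.00 peaks of the matched number in WT and 33.0 ± 1.00 in KO (SD, n = 3 each). After 1 h of LPS the sum was 29.5 ± 0.707 in WT (n = 2) and 27.7 ± 2.08 in KO (n = 3), and after 18 h it was 30.0 ± 3.61 and 29.3 ± 3.51 (n = 3 each). At Mrc1 the WT lists held 4 peaks each at 0 h, 2 each at 1 h and 1 to 2 at 18 h, and the KO lists held 1 to 3, 1 to 2 and 0 to 2. At Cd36 the WT lists held 6 each at 0 h and 4 to 5 at both later times.

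After LPS, sites at these genes moved in both directions. At 1 h against 0 h, 6 of the 40 sites (15%) rose and 12 (30%) fell, where over all consensus sites 13.6% rose and 14.5% fell (limma, adjusted p under 0.05). With log2 depth as a covariate, 5 rose and 7 fell at 1 h. In the fit without depth the sites that rose were at Msr1 (3), Axl, Cd5l and Mrc1, and those that fell were at Mertk (4), Mrc1 (3), Axl (2), Cd36, Stab1 and Trem2. The median difference was -0.15 over the 40 sites and -0.02 over all sites. At 18 h against 0 h, 4 sites (10%) rose and 10 (25%) fell, against 10.7% and 13.0% of all sites, and with depth as a covariate 4 rose and 8 fell. The sites that rose were at Stab1 (2), Cd5l and Mertk, and those that fell were at Mertk (3), Mrc1 (3), Axl (2), Cd36 and Trem2. The median difference was -0.10 over the 40 sites and 0.00 over all. Sites entered the set through any list with a matched-number peak, and some of the called sites had such peaks at 1 time only, so that they had to differ. These were 2 of the 6 that rose at 1 h (Axl +6.7 kb and Mrc1 +50.1 kb) and 3 of those that fell at each time (Mertk +72.3 kb, Mrc1 +2.2 kb and Cd36 +52.9 kb), and they are described without a test. Over all called consensus sites, peaks at 1 time only were found at 20.2% of those that rose and 6.5% of those that fell at 1 h, and at 16.7% and 7.62% at 18 h. A site is said to have passed where its limma adjusted p was under 0.05, and the exact permutation p is not adjusted for the number of sites.

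The comparisons at 1 h and 18 h share the 0 h lists. At 1 h the lists of both times did not overlap at 1 site that rose (2.5%, all sites 8.57%) and 4 that fell (10%, all sites 9.15%). At 18 h this held for 2 sites that rose (5%, 5.44%) and 5 that fell (12.5%, 7.24%).

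**Figure D3:**
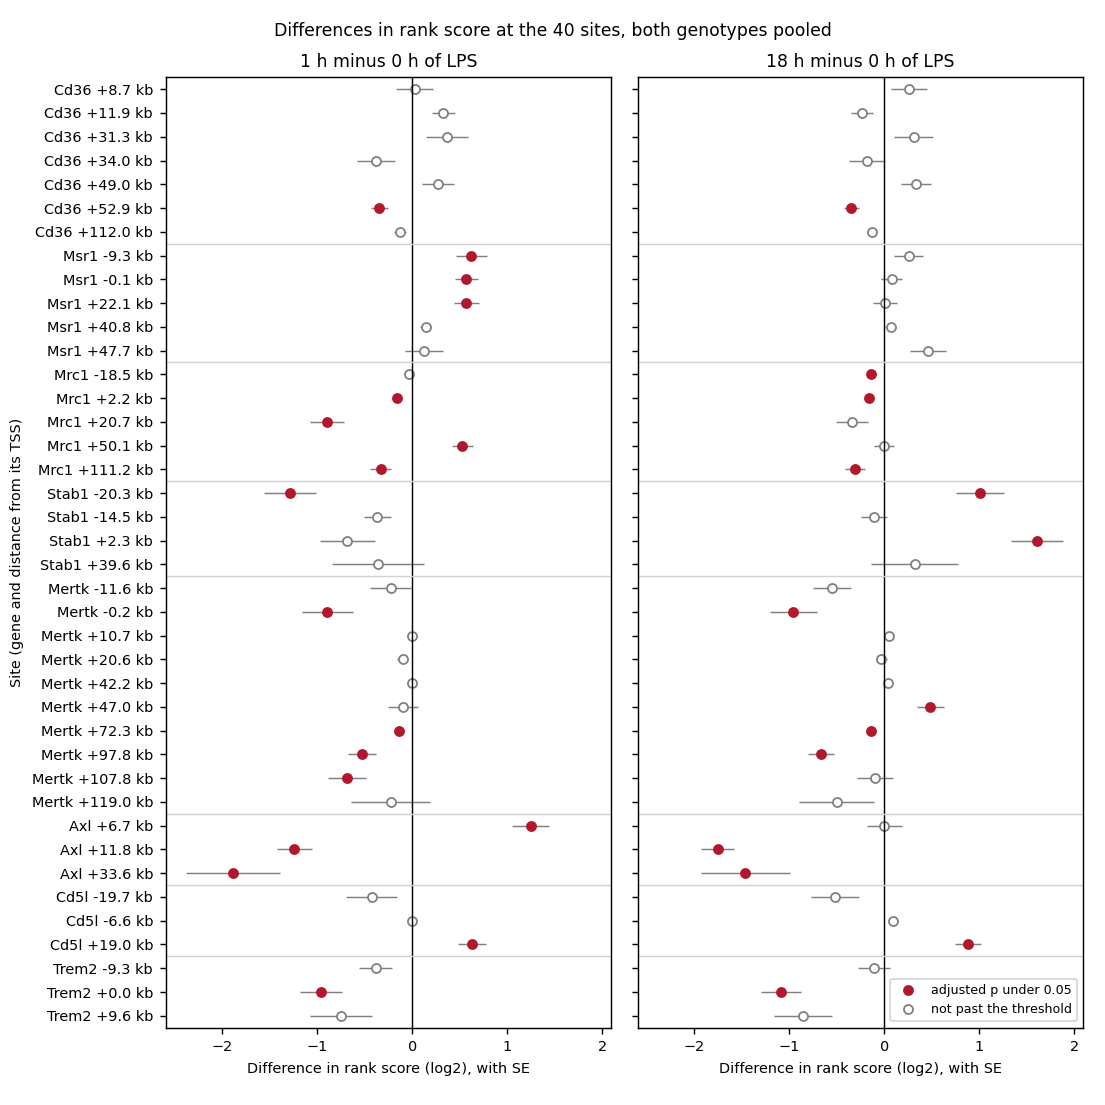
Difference in rank score from 0 h (horizontal axis, log2 scale, bars are the SE of the limma fit over both genotypes) at each of the 40 sites after 1 h (left) and 18 h (right) of LPS, with filled points past an adjusted p of 0.05. The sites farthest to the left are Axl +33.6 kb at 1 h and Axl +11.8 kb at 18 h, and the farthest to the right are Axl +6.7 kb at 1 h and Stab1 +2.3 kb at 18 h. Filled points include sites with matched-number peaks at 1 time only, such as Axl +6.7 kb, which had to differ.

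Axl, which binds Gas6 and clears dying cells at sites of inflammation, lies at chr7:25757273-25788705 on the minus strand. With LPS, 2 sites in its introns lost or gained matched-number peaks. The Axl +11.8 kb site (chr7:25776340-25777796) ranked 7172, 6254 and 6500 in the WT lists at 0 h and 6319, 10912 and 7109 in the KO lists. At 1 h it ranked 13626 in WT replicate 3, had no matched-number peak in WT replicate 1-2, and ranked 17724, 13130 and 17691 in KO. At 18 h no list of either genotype held a matched-number peak there. It was thus all-or-none between 0 h and 18 h, which 1.96% of all sites were in that direction and 1.76% in the other. The rank score fell by 1.24 at 1 h (SE 0.18, limma adjusted p = 0.000114) and by at least 1.75 at 18 h (SE 0.17, limma adjusted p = 5.64e-06), and in both cases the exact permutation p was 0.005, the smallest that these regroupings can give. In the complete lists the site still had a peak in WT 18 h replicates 1 and 2, at ranks 37004 and 36785, and in no KO list at 18 h.

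The Axl +6.7 kb site (chr7:25781195-25782582) did the opposite at 1 h. It had no matched-number peak in any of the 6 lists at 0 h or the 6 at 18 h, and had one in all 5 lists at 1 h, at ranks 14418 and 10798 in WT and 11552, 4525 and 11553 in KO. Such all-or-none gains at 1 h made up 2.74% of all sites and such losses 1.95%. The rank score was higher by at least 1.25 (SE 0.19), a description only, since the site entered the set through the lists at 1 h alone. The complete lists held weak peaks there in 5 of the 6 lists at 0 h, at ranks of 28764 to 38271, and in 3 of the 6 at 18 h, at ranks of 26000 to 50136. Either call at Axl +11.8 kb was kept under all 29 alternatives that gave a value.

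The remaining site, Axl +33.6 kb, lay 339 bp from the TSS of the neighbouring gene Hnrnpul1, an RNA-binding protein gene, and was the strongest of the 40. It ranked 208, 218 and 110 in WT and 118, 316 and 155 in KO at 0 h, and 279 to 396 in WT and 371 to 1748 in KO at 18 h. At 1 h it ranked 1376 and 459 in WT and 415, 1155 and 304 in KO. The score fell by 1.89 at 1 h (SE 0.50, limma adjusted p = 0.0101) and by 1.46 at 18 h (SE 0.47, adjusted p = 0.0330). The groups overlapped at both times. Without WT 1 h replicate 1-2 the limma adjusted p at 1 h was 0.0687, with depth as a covariate it was 0.206, and without any of 7 single lists the call at 18 h was lost (highest adjusted p = 0.0848). Both calls were also lost when a peak had to cover at least 50% of the site (limma adjusted p = 0.0906 at 1 h and 0.241 at 18 h).

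**Figure D4:**
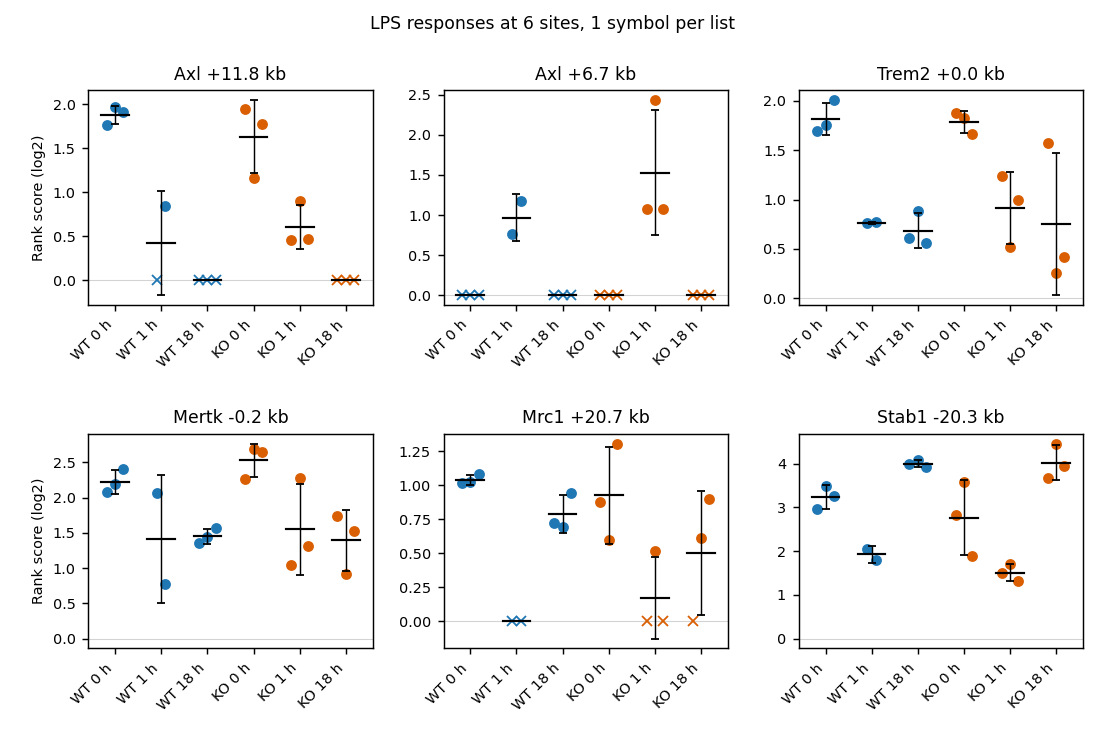
Rank score (vertical axis, log2 scale, 0 is no matched-number peak) at 6 sites in each list, with dots for lists with a peak and crosses for lists without, WT in blue, KO in orange, and a black line and bar for the mean and SD of each group. Axl +11.8 kb goes to 0 in all 6 lists at 18 h, Axl +6.7 kb is above 0 in the 5 lists at 1 h only, the Trem2 and Mertk promoters are highest at 0 h, Mrc1 +20.7 kb keeps a dot in 1 list at 1 h, and Stab1 -20.3 kb dips at 1 h and is highest at 18 h.

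Mertk, the receptor kinase that mediates steady-state clearance of dying cells, lies at chr2:128698956-128802894 on the plus strand and had 10 sites. Its promoter, the Mertk -0.2 kb site (chr2:128697677-128699774), was open in all 17 lists and fell with LPS. It ranked 5790, 5327 and 4580 in WT and 5093, 3794 and 3890 in KO at 0 h. At 18 h it ranked 9546, 8981 and 8238 in WT and 7299, 12931 and 8492 in KO, below every list at 0 h. At 1 h the lists overlapped, with 5849 and 14303 in WT and 11779, 5022 and 9793 in KO. The score fell by 0.90 at 1 h (SE 0.27, limma adjusted p = 0.0202, exact p = 0.015) and by 0.96 at 18 h (SE 0.25, limma adjusted p = 0.0116, exact p = 0.005). The call at 1 h was lost without WT 1 h replicate 3 (difference -0.57, limma adjusted p = 0.130) and without KO 1 h replicate 1 (limma adjusted p = 0.0509).

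In the Mertk introns, Mertk +97.8 kb fell at both times. It ranked 13794, 13681 and 12574 in WT and 10823, 10912 and 9859 in KO at 0 h, and 15749, 14720 and 17767 in WT at 18 h. Only replicate 3 of the 3 KO lists at 18 h had a matched-number peak there, at rank 18251. It fell by 0.53 at 1 h (SE 0.15, limma adjusted p = 0.0138) and by 0.67 at 18 h (SE 0.14, limma adjusted p = 0.00228), and the lists of each time did not overlap with those at 0 h. With depth as a covariate the adjusted p at 1 h was 0.131. Mertk +47.0 kb moved the other way at 18 h. It had a peak in 3 of 6 lists at 0 h (ranks 19856 to 23203), in none at 1 h and in 5 of 6 at 18 h (ranks 12164 to 20622), a rise of 0.49 (SE 0.15, limma adjusted p = 0.0236, exact p = 0.035) whose call was lost without any of 5 single lists (highest adjusted p = 0.0628) and at 50% cover (limma adjusted p = 0.137). This site joins summits at +46.99 and +48.73 kb, and the ranks at 0 h were those of +48.73 kb. As a summit window, +46.99 kb rose by 0.56 at 18 h (SE 0.14, limma adjusted p = 0.00835). At +48.73 kb the difference was -0.10 (SE 0.05, limma adjusted p = 0.168).

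Downstream of the gene, Mertk +107.8 kb was present in all lists and fell by 0.69 at 1 h (SE 0.20, limma adjusted p = 0.0189), from ranks of 7328 to 10242 to ranks of 8384 to 18911. Without WT 1 h replicate 1-2 the difference was -0.62 (limma adjusted p = 0.0744), with depth as a covariate it was -0.80 (limma adjusted p = 0.0511), and with the 10000 best peaks it was -0.16 (limma adjusted p = 0.262). The strongest site at the gene that was not its promoter, Mertk +119.0 kb at the Tmem87b promoter, ranked 827 to 4039 and did not pass (difference at 18 h -0.50, SE 0.39, limma adjusted p = 0.399, exact p = 0.020). Nor did Mertk -11.6 kb at the Anapc1 promoter, although at 18 h all 6 lists ranked below all 6 at 0 h (difference -0.55, SE 0.20, limma adjusted p = 0.0595, exact p = 0.005). Mertk +72.3 kb had ranks of 18588 to 23138 in 4 lists at 0 h and no matched-number peak after LPS, and its difference was -0.14 at each time (SE 0.04). It entered the set through lists at 0 h alone. The other 3 sites, Mertk +10.7, +20.6 and +42.2 kb, were present in 2 to 6 lists at ranks of 19109 or worse and passed no test.

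Trem2, a receptor for lipids and dying cells that signals through Tyrobp, lies at chr17:48346401-48354147 on the plus strand. Its promoter (chr17:48345801-48348992) was open in all 17 lists and fell with LPS in both genotypes. It ranked 7518, 7246 and 6074 in WT and 6636, 6892 and 7714 in KO at 0 h. At 1 h it ranked 14418 and 14303 in WT and 10370, 17011 and 12233 in KO, and at 18 h 15954, 13207 and 16594 in WT and 8178, 20443 and 18251 in KO. Every list after LPS ranked below every list at 0 h. The score fell by 0.96 at 1 h (SE 0.22, limma adjusted p = 0.00442) and by 1.09 at 18 h (SE 0.21, limma adjusted p = 0.00147), with an exact p of 0.005 at both times. With depth as a covariate the difference at 1 h was -0.73 (limma adjusted p = 0.0920).

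A second summit in the merged Trem2 promoter site, 1.16 kb into the gene, was ranked on its own as a summit window. It fell by 0.79 at 1 h (SE 0.17, limma adjusted p = 0.00260) and by 0.69 at 18 h (SE 0.16, limma adjusted p = 0.00529). The strongest Trem2 site was distal. Trem2 +9.6 kb ranked 2143 to 4865 at 0 h, 1786 to 11828 at 1 h and 4006 to 6804 at 18 h, and its difference of -0.85 at 18 h did not pass the test (SE 0.31, limma adjusted p = 0.0572, exact p = 0.015). Trem2 -9.3 kb ranked 10715 to 19322 in the 16 lists with a peak and did not pass (difference at 1 h -0.39, SE 0.18, limma adjusted p = 0.117, exact p = 0.020).

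Stab1, a receptor for phosphatidylserine and modified lipoproteins, lies at chr14:31139013-31168641 on the minus strand, next to Nisch, and 2 of its 4 sites rose at 18 h, of which 1 had fallen at 1 h. The Stab1 -20.3 kb site (chr14:31188034-31190515), in an intron of Nisch, ranked 3135, 2166 and 2534 in WT and 3445, 2026 and 6560 in KO at 0 h. At 1 h it ranked 5849 and 7044 in WT and 8582, 7527 and 9793 in KO. At 18 h it ranked 1532, 1432 and 1613 in WT and 1918, 1109 and 1580 in KO, above every list at 0 h. The score fell by 1.29 at 1 h (SE 0.27, limma adjusted p = 0.00213) and rose by 1.01 at 18 h (SE 0.25, limma adjusted p = 0.00887), both with an exact p of 0.005. KO 0 h replicate 3, at rank 6560, was the only list at 0 h to overlap with those at 1 h. Under the rule that a peak must cover at least 50% of the site, the difference at 18 h was -0.09 (limma adjusted p = 0.962).

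Within Stab1 the peaks merged into a site 19060 bp wide, so its summits were also ranked 1 by 1. The summit at +2.31 kb (window chr14:31166024-31166698), in an intron, had the same course. It ranked 1398 to 2835 at 0 h, 4213 to 9266 at 1 h and 403 to 1435 at 18 h. Its score fell by 1.60 at 1 h (SE 0.32, limma adjusted p = 0.00157) and rose by 1.42 at 18 h (SE 0.30, limma adjusted p = 0.00287). The summit at +7.98 kb ranked 3051 to 5630 at 0 h and 666 to 2431 at 18 h, a rise of 1.37 (SE 0.28, limma adjusted p = 0.00212), and its difference at 1 h was 0.42 (SE 0.30, limma adjusted p = 0.329). For the whole merged site, Stab1 +2.3 kb, the rise at 18 h was 1.61 (SE 0.27, limma adjusted p = 0.000515, exact p = 0.005), with no overlap between ranks of 1398 to 2835 at 0 h and 403 to 889 at 18 h. When a peak had to cover at least 50% of this wide site, the call was lost (0.91, SE 0.65, limma adjusted p = 0.379). The difference of the merged site at 1 h was -0.69 and did not pass the test (SE 0.29, limma adjusted p = 0.0903, exact p = 0.020).

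The internal TSS of Stab1, at +28.82 kb, had ranks of 19175 to 22197 in 5 of 6 lists at 0 h and 9082 to 19252 in all 6 at 18 h, a rise of 0.57 (SE 0.18, limma adjusted p = 0.0289). The strongest site near the gene, Stab1 +39.6 kb, lay 61 bp from the Smim4 TSS. It ranked 210 to 4525, was present in all 17 lists and as a merged site passed no test. A weaker summit inside it, at +37.62 kb, fell at 1 h. That summit ranked 9687 to 17967 in all 6 lists at 0 h, while at 1 h only KO replicate 1 had a matched-number peak there, at rank 22685. The fall was 0.78 on the log2 scale (difference -0.78, SE 0.19, limma adjusted p = 0.00652). Stab1 -14.5 kb, at ranks of 14300 to 23855 in 16 lists, did not pass (difference at 1 h -0.37, SE 0.15, limma adjusted p = 0.0714, exact p = 0.035).

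Msr1, the class A scavenger receptor for modified lipoproteins, lies at chr8:39581685-39642673 on the minus strand, and the 3 of its 5 sites called after LPS rose at 1 h. All 3 calls were lost when a peak had to cover at least 50% of the site, with differences of 0.27 at the promoter, 0.12 at Msr1 +22.1 kb and -0.0046 at Msr1 -9.3 kb. The promoter, Msr1 -0.1 kb (chr8:39642527-39643546), ranked 19029, 23153 and 22888 in WT and 23523 and 23586 in KO at 0 h, with no matched-number peak in the remaining KO list. At 1 h it ranked 9850 and 12997 in WT and 20622 and 17691 in KO replicates 1 and 3, with none in replicate 2. The score rose by 0.57 (SE 0.12, limma adjusted p = 0.00227, exact p = 0.020), and the lists overlapped. At 18 h the difference was 0.08 (SE 0.11, limma adjusted p = 0.682).

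At the intron site Msr1 +22.1 kb (chr8:39618829-39620969), which holds 2 AP-1 matches, the ranks at 0 h were 20173 to 24389. At 1 h they were 15060 in WT replicate 3 and 10731, 11685 and 12233 in KO, with no matched-number peak in WT replicate 1-2. The rise at 1 h was 0.57 (SE 0.13, limma adjusted p = 0.00508, exact p = 0.030). This site joins summits at +22.14 and +22.64 kb. The summit at +22.14 kb, near the AP-1 matches, had matched-number peaks at 1 h only and so had to differ. The ranks at 0 h were those of +22.64 kb, in a coding exon. Its difference at 1 h was -0.14 (SE 0.09, limma adjusted p = 0.266). Upstream, Msr1 -9.3 kb was present in 2 of 6 lists at 0 h, at ranks 19861 and 23931, and in all 5 at 1 h, at ranks of 11828 to 21603, a rise of 0.62 (SE 0.17, limma adjusted p = 0.0105, exact p = 0.005). Without WT 1 h replicate 1-2 that rise was 0.55 (limma adjusted p = 0.0507) and with depth as a covariate 0.48 (limma adjusted p = 0.145). Msr1 +40.8 kb and Msr1 +47.7 kb did not pass at either time, the latter with a difference of 0.46 at 18 h (SE 0.19, limma adjusted p = 0.0976, exact p = 0.025).

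Mrc1, the mannose receptor, lies at chr2:14229392-14332057 on the plus strand and had no site that ranked better than 9859. The best of them, Mrc1 +20.7 kb (chr2:14249802-14250632), in an intron, ranked 12029, 12005 and 11514 in WT and 13278, 16116 and 9859 in KO at 0 h. At 1 h only KO replicate 2 had a matched-number peak there, at rank 17011. At 18 h it ranked 14769, 15047 and 12652 in WT and 15965 and 13105 in KO replicates 2 and 3. The score fell by 0.90 at 1 h (SE 0.18, limma adjusted p = 0.00155, exact p = 0.005), with no overlap of the lists, while its difference at 18 h was -0.34 (SE 0.17, limma adjusted p = 0.171, exact p = 0.045).

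Mrc1 +2.2 kb (chr2:14230969-14232016), the site nearest to the TSS, had ranks of 19511 to 20308 in the WT lists at 0 h and 23586 and 23844 in KO, and no matched-number peak in any of the 11 lists after LPS. The difference was -0.16 at both times (SE 0.03), given without a test because the site entered the set through lists at 0 h alone. Mrc1 +50.1 kb was gained at 1 h in 4 of 5 lists, at ranks of 12975 to 17724, and had no peak at any rank in the 12 lists at 0 and 18 h, a difference of 0.52 (SE 0.11) at a site that entered the set through those lists alone. Mrc1 +111.2 kb fell by 0.33 at 1 h (SE 0.11, limma adjusted p = 0.0351) and by 0.31 at 18 h (SE 0.10, limma adjusted p = 0.0428), but the exact p was 0.10 and 0.05 and the limma call was lost under 12 and 20 of the 28 alternatives, several single lists left out among them. Mrc1 -18.5 kb was also called at 18 h, lower by a difference of -0.14 (limma adjusted p = 0.0433, exact p = 0.10), and lost that call under 16 of 28 alternatives.

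Cd36, the class B scavenger receptor for oxidised lipoproteins and long-chain fatty acids, lies at chr5:17781690-17888801 on the minus strand, and 6 of its 7 sites did not pass after LPS in limma. Cd36 +34.0 kb was the strongest, with ranks of 5227 to 8301 at 0 h, 5574 to 14418 at 1 h and 6087 to 10273 at 18 h. Cd36 +49.0 kb was likewise present in all 17 lists, at ranks of 9546 to 23586. Neither passed, nor did Cd36 +31.3, +8.7 or +112.0 kb. At Cd36 +49.0 kb the difference at 1 h was 0.27 (SE 0.17, limma adjusted p = 0.268, exact p = 0.020). The site at the internal TSS, Cd36 +52.9 kb (chr5:17835372-17836519), was the exception. It ranked 20728, 18524 and 15374 in WT and 16633 and 20689 in KO replicates 1 and 3 at 0 h and had no matched-number peak in the 11 lists after LPS. The difference was -0.35 at both times (SE 0.09 at 1 h and 0.08 at 18 h), a description only, since this site too entered the set through lists at 0 h alone. With depth as a covariate the difference at 1 h was -0.23.

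Cd5l, a secreted factor of tissue macrophages, lies at chr3:87357881-87371073 on the plus strand. The Cd5l +19.0 kb site (chr3:87376101-87377166), 427 bp from the TSS of Fcrl1 and in an intron of that gene, was present in all 17 lists and rose with LPS. It ranked 22434, 19861 and 22191 in WT at 0 h, 17414 and 15060 at 1 h and 15749, 12675 and 15553 at 18 h. In KO it ranked 14872, 18806 and 18588 at 0 h, 11331, 8384 and 9266 at 1 h and 7299, 8892 and 6512 at 18 h. In each genotype every list after LPS ranked above every list at 0 h. The rise was 0.63 at 1 h (SE 0.15, limma adjusted p = 0.00533) and 0.88 at 18 h (SE 0.14, limma adjusted p = 0.000326), with an exact p of 0.005 at both times. At 50% cover the differences were -0.041 and 0.34 and neither passed, and with the 10000 best peaks the difference at 1 h was 0.06 (limma adjusted p = 0.586). Upstream of the gene, Cd5l -19.7 kb ranked 6560 to 17260 in 15 lists and passed no test, and Cd5l -6.6 kb had a peak in 2 lists only.

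Marco, a class A scavenger receptor, and Cd163, the receptor for haptoglobin and haemoglobin, were closed by this measure. Over the 17 complete lists Marco (chr1:120474538-120505024) had 16 peaks within 20 kb and Cd163 (chr6:124304656-124330527) had 24, of which 1 each was a matched-number peak.

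Few sites differed between KO and WT. Over all times, 1 of the 40 sites (2.5%) passed the test, against 0.539% of all consensus sites. That site was Cd5l +19.0 kb, which ranked better in KO at each time, with the values given above. Its score was higher by 0.67 (SE 0.12, limma adjusted p = 0.0154, exact p = 0.00025, the smallest that these regroupings can give). At 18 h it was the only site called (1 of 40 higher, all sites 0.287%), higher by 0.96 (SE 0.20, limma adjusted p = 0.0343), with all 3 KO lists above all 3 WT lists. An exact test of 3 lists against 3 cannot go below 0.10, and it gave 0.10. Within 1 Mb of the site, 3 of 63 consensus sites were called over all times, itself included, and on chromosome 3 as a whole 26 of 1603. At 0 h, when this site was not called, 3 of the 63 were called and 10 of the 1603, at 1 h 2 and 26, and at 18 h 2 and 19. The KO lists at 18 h were shallower than the WT lists (1.10 to 1.76 against 4.62 to 8.38 background reads per kb), and with depth as a covariate the difference was 0.70 over all times (limma adjusted p = 0.0661) and 1.01 at 18 h (limma adjusted p = 0.171). At 50% cover it was 0.13 over all times and -0.26 at 18 h, with neither called, and with the 10000 best peaks 0.18 over all times (limma adjusted p = 0.220). Without WT 0 h replicate 3 the adjusted p over all times was 0.0518. The call at 18 h was lost without any of 7 single lists (KO 0 h replicate 2, KO 18 h replicate 3, WT 18 h replicates 1 and 3 and each WT list at 0 h), with a highest adjusted p of 0.140 in limma.

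**Figure D5:**
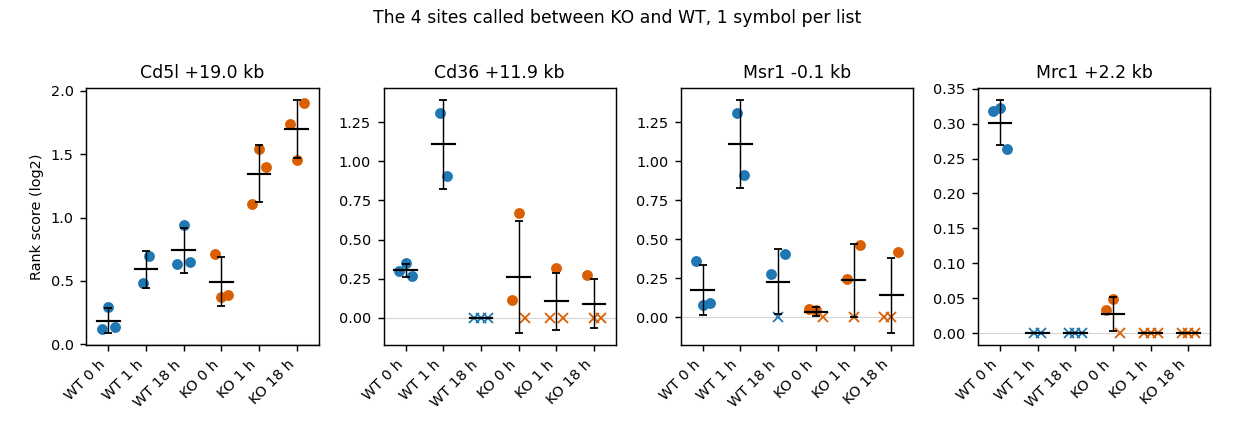
Rank score (vertical axis, log2 scale, 0 is no matched-number peak) in each list at the 4 sites called between genotypes, with dots for lists with a peak, crosses for lists without, WT in blue, KO in orange, and a black line and bar for the mean and SD. The KO lists are higher at Cd5l +19.0 kb, while the WT lists are higher at Cd36 +11.9 kb and Msr1 -0.1 kb at 1 h and at Mrc1 +2.2 kb at 0 h.

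At 0 h, 1 site was called lower in KO (2.5%, all sites 0.193%). This was Mrc1 +2.2 kb, with a difference of -0.27 (SE 0.04, limma adjusted p = 0.00708, exact p = 0.10) near the end of the matched-number lists. The site entered the set through lists at 0 h alone, the same lists that are compared here. With depth as a covariate the limma adjusted p was 0.0526, and over all deposited peaks it was 0.988. At 1 h, 2 sites (5%, all sites 0.720%) were called lower in KO. Cd36 +11.9 kb (chr5:17876576-17877336), which holds an NBRE 56 bp upstream of its summit, ranked 9850 and 12997 in WT at 1 h, while of the KO lists only replicate 2 had a matched-number peak, at rank 19586. Its difference was -1.0 (SE 0.18, limma adjusted p = 0.00951). At the Msr1 promoter, whose ranks at 1 h are given above, the difference was -0.87 (SE 0.18, limma adjusted p = 0.0241).

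For both sites at 1 h the WT lists stood above the KO lists without overlap, and the exact p was 0.10, the smallest possible. Without WT 1 h replicate 1-2, in which both peaks have the tied rank 9850, the differences were -0.80 and -0.67 and neither passed (limma adjusted p = 0.0987 and 0.215). The Msr1 call was also lost without KO 1 h replicate 2 (limma adjusted p = 0.0646), and at 50% cover neither was called (-0.45 and -0.22). The Msr1 intron site, Msr1 +22.1 kb, was called in neither direction at 1 h, with all 3 KO lists above WT replicate 3 at the ranks given above. The difference of 0.73 did not pass at the merged site (SE 0.20, limma adjusted p = 0.112, exact p = 0.10). Its strongest summit ranked alone, at +22.14 kb, had the same difference, given without a test because that window had matched-number peaks in these 4 lists only. At 0 h, Cd36 +11.9 kb ranked 19832, 19175 and 20308 in WT and 22570 and 15343 in KO. In the LPS comparisons of both genotypes together it was not called, with a difference of 0.33 at 1 h (SE 0.12, limma adjusted p = 0.0564).

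All-or-none differences between genotypes were seen at 3 sites. At 0 h, Cd36 +112.0 kb and Msr1 +47.7 kb had a matched-number peak in the 3 KO lists and in no WT list (2 of 40, 5%, all sites 0.340%), although Cd36 +112.0 kb entered the set through those lists alone and so had to differ, and Mrc1 -18.5 kb in the 3 WT lists and in no KO list (1 of 40, 2.5%, all sites 0.597%). At 1 h Msr1 +47.7 kb again stood in the 3 KO lists and in neither WT list (2.5%, all sites 1.25%). None of these passed the limma test in the same comparison. The complete lists held peaks of all 3 WT libraries at 0 h at Cd36 +112.0 kb, at ranks of 25842 to 29770, and at Msr1 +47.7 kb, at ranks of 24658 to 25730, just past the number compared. The KO lists ranked 16815 to 22570 and 17150 to 22197 there. At Mrc1 -18.5 kb 1 KO list at 0 h had a peak, at rank 30127.

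No difference in LPS response between KO and WT passed the test. At 1 h and at 18 h, 0 of the 40 interactions passed the limma test, against 0.252% and 0.0468% of all sites. At an unadjusted p under 0.05 there were 4 of 40 higher and 4 lower at 1 h, where 3.75% and 3.34% of all sites were, and 3 higher and 3 lower at 18 h, against 2.77% and 3.87%. The exact test, which was not run over all sites, gave a p under 0.05 at 2 sites at each time. The smallest adjusted p was 0.0885, for Mrc1 +2.2 kb at 1 h, a site with matched-number peaks at 0 h only. Over all times the difference between KO and WT was -0.02 (SE 0.15) at Axl +11.8 kb, 0.06 (SE 0.18) at the Trem2 promoter and 0.13 (SE 0.21) at the Mertk promoter.

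Other genes of the same processes were counted from a fixed list of 31, of which 27 had sites within 20 kb, 153 in all. At 1 h, 30 of these sites (19.6%) rose and 32 (20.9%) fell, where 13.6% and 14.5% of all consensus sites did. At 18 h 19 (12.4%) rose and 24 (15.7%) fell, against 10.7% and 13.0% of all. Among these, 7 that rose and 2 that fell at 1 h, and 4 and 2 at 18 h, had matched-number peaks at 1 time only and so had to differ. Of the 12 sites of bridging molecules and opsonins, 4 fell at 1 h and 5 at 18 h, and none rose. At 1 h these were 2 sites at Gas6, the ligand of Axl and Mertk, with differences of -1.48 (SE 0.31) and -0.74 (SE 0.19), and 2 at the complement C1q genes, with -1.08 (SE 0.19) and -0.44 (SE 0.07). The 81 sites of other receptors were balanced, with 17 higher and 18 lower at 1 h and 12 and 13 at 18 h. The 60 sites of signalling and engulfment genes likewise held 13 higher and 10 lower at 1 h and 7 and 6 at 18 h. Between genotypes the limma test called 2 of the 153 sites, both at 18 h. A site at Itgb3 was higher in KO by 0.61 (SE 0.09), 1 of 153 where 0.287% of all sites were higher, and a site at Lrp1 differed by -0.34 (SE 0.07), 1 of 153 where 0.536% of all sites were lower. The Lrp1 site had matched-number peaks at 18 h only.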

How the data were processed

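ATAC-seq peak lists of 17 BMDM samples were used. The authors trimmed the reads with cutadapt 2.6, aligned them to mm10, kept a mapping quality of at least 20 and called peaks per sample with a q-value threshold of 0.001. The peak caller is not given in the sources used here. The deposited columns used were the −log10 p-value and −log10 q-value of each summit, the fold enrichment (a ratio of pileup to background) and an integer score, 10 times the −log10 q-value. DiffBind 3.0.15, which the submitters' processing notes name, was not run.

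Summits called within the same interval were reduced to the best of them, and the best 24389 intervals of each list were kept, with ties broken at seed 1. Peaks overlapping by at least 1 bp were merged, and regions seen in at least 2 lists became sites. Depth was recovered from the p-values and fold enrichments as a relative index, and ranks carry no counting interval. Rank scores of all 34158 sites were fitted with limma 3.58.1 (6 group means, variance trend) in R 4.3.3, with Benjamini-Hochberg adjustment at 0.05 and no covariate. Exact p-values are two-sided permutation tests of lists within strata. No test of these steps on simulated data is reported here. The LPS comparisons average both genotypes. Alternatives were other peak numbers, site definitions, windows, weights, depth, a replicate block and single lists left out. Named sites were those past the test, promoters, all-or-none sites and the best distal site of each gene. Genes, lists and shown sequences were chosen with earlier results of these data known. Gene models came from GENCODE (mm10), and motifs and sequences from RefSeq's GRCm38 genome.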

Additional observations from a re-analysis of the deposited data

How the results depend on the processing

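The 18 sites called at 1 h and the 14 at 18 h stayed within 1.5 times of these counts under most alternatives, with 15 to 20 and 11 to 15 calls when 1 list at a time was left out. The 18 and the 14 include the sites with matched-number peaks at 1 time only. With the 10000 best peaks the calls were 5 and 7, in a 50 kb window 29 and 23, and by all-or-none presence 1 and 1. When a peak had to cover at least 50% of a site, 9 passed at 18 h.

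Calls between KO and WT rested on more choices. Over all times (1 call) there were 0 with the 10000 best peaks, log2 depth as covariate or all-or-none presence, 3 at 50% cover, 2 with sites seen in at least 1 list or a 50 kb window, and 0 to 2 with a list left out. At 0 h (1 call) there were 0 with the 10000 best peaks, all deposited peaks, sites seen in at least 5 lists, no variance trend or depth as covariate, 2 with sites seen in at least 1 list, 3 with array weights, a 50 kb window or all-or-none presence, and 1 to 2 with a list left out. At 1 h (2 calls) there were 0 with the 10000 best peaks, all deposited peaks, 50% cover, array weights or without both the narrow-peak list and the shallowest list, an alternative chosen after seeing the data, 1 by all-or-none presence, and 0 to 3 with a list left out (0 without WT 1 h replicate 1-2). At 18 h (1 call) there were 0 with all deposited peaks, sites seen in at least 5 lists, depth as covariate or all-or-none presence, 6 at 50% cover, 2 in a 50 kb window, and 0 to 2 with a list left out. The LPS responses that differed by genotype (0 at each time) were 1 at each time at 50% cover or with sites seen in at least 1 list, and 3 at 1 h without WT 1 h replicate 3 (0 to 3 over all lists left out).

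With a replicate block, which leaves out WT 1 h replicate 1-2, calls at 1 and 18 h of LPS were 16 and 14, those between genotypes 0 over all times, 1 at 0 h, 0 at 1 h and 0 at 18 h, and those of the LPS response by genotype 0 and 0. Same-numbered lists did not deviate together (median r 0.0055 over 35 pairs, 4 over 0.1), so the numbers were not taken as a pairing.

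The number of matched-number peaks per locus and list, summed over the 10 genes, was 30.3 on average. It was 25.2 in a 10 kb and 48.2 in a 50 kb window, 10.6 among the 10000 best and 71.5 over all deposited peaks. The all-or-none LPS sites, 2 in all, were 1 with the 10000 best peaks and 1 at 50% cover. The 37 differences of named sites include those at sites with matched-number peaks at 1 time only, Axl +6.7 kb among them. Those sites had to differ, and their kept calls are counted here. Of the alternatives, 925 kept the call, 120 lost it and 4 turned the sign. These 4 arose at 50% cover: Cd5l +19.0 kb at 1 h (-0.041) and between genotypes at 18 h (-0.2563), Msr1 -9.3 kb at 1 h (-0.0046) and Stab1 -20.3 kb at 18 h (-0.0903). The cause was not tested. Ranks compare sites within a list, so a shift of all sites would not be seen, and weak sites near the end of the shallow lists rest on few reads.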

Other observations

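Among the other genes of these processes, a few sites are described here. At 1 h of LPS, a site near Syk, the kinase downstream of Trem2 and Tyrobp, rose by 4.34 (SE 0.24, limma adjusted p = 1.72e-08), and it was still higher by 2.20 at 18 h (SE 0.23). A site near Cxcl16, which encodes a membrane-bound scavenger receptor for oxidised lipoprotein and phosphatidylserine, rose by 3.34 (SE 0.34), and a site near Lrp1, an endocytic receptor, by 3.10 (SE 0.40). A site near Olr1, the lectin-like receptor of oxidised lipoprotein, rose by 1.29 at 1 h (SE 0.11). The promoter of Olr1 held a matched-number peak in none of the 6 lists at 0 h, in 4 of the 5 at 1 h and in none of the 6 at 18 h.

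In the other direction, a site near Itgb5, the integrin subunit that binds Mfge8 with Itgav, fell by 3.00 at 1 h (SE 0.24), and a site near Tyrobp, the adaptor of Trem2, fell by 1.81 (SE 0.17). At 18 h a site near Elmo1, an engulfment adaptor, fell by 2.73 (SE 0.17, limma adjusted p = 2.89e-07). Syk, Cxcl16, Lrp1, Olr1, Tyrobp and Elmo1 each also had called sites that moved the other way at 1 h or 18 h, among them a site near Tyrobp that rose by 0.90 (SE 0.30) and one near Elmo1 that rose by 1.25 (SE 0.20), both at 1 h. The sites named here were singled out after their values were seen. They are not a ranking, since other sites of these genes with differences as large as those near Olr1 or Tyrobp are not listed.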
